A study of Mus musculus with 6 samples.

Results

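The genes described here belong to the bone morphogenetic protein (BMP) and transforming growth factor beta (TGF-beta) pathways. They were every gene on the array whose symbol marks it as a BMP, a TGF-beta, an activin subunit, a receptor of these ligands, a Smad, an Id factor or a secreted antagonist. The rule by symbol used no measured value, though it was chosen with earlier results of these data known. It gave 57 genes with 77 probes, of 36095 named targets in all. The UVB group was 3 male C57BL/6 mice of 6 to 8 weeks whose shaved backs were irradiated with ultraviolet B (UVB), 180 mJ/cm2 each time, on 3 occasions weekly over 2 weeks. The control group was 3 male C57BL/6 mice of the same age, shaved and kept dark. No genetic change is given in the labels for either group. Irradiation started 2 days after shaving under anaesthesia, and neither anaesthesia of the controls nor the time between the last session and sampling is given in the sources used here. Total RNA of the skin of each mouse was measured on 1 Agilent mouse array in 1 colour.

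Ligands of this superfamily bind pairs of type I and type II serine/threonine kinase receptors, which phosphorylate receptor-activated Smads that enter the nucleus with the common Smad. In skin, TGF-beta is known for restraining keratinocyte growth and for driving fibroblasts to lay down matrix, and BMPs are known for keeping hair follicle stem cells at rest between growth phases. Id genes are classic direct targets of BMP signals, and noggin, gremlin, follistatin and chordin bind ligands outside the cell.

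Levels are log2 signals relative to the 75th percentile of each array, so that 0 is that percentile, and levels of different probes cannot be compared with each other. Per array, 54.9% to 63.3% of spots other than controls were well above background, no spot was saturated, and 3 arrays per group limit the precision of every value. The labels call the tissue skin, and all 7 basal and all 8 suprabasal keratinocyte markers were measured above background. A member was tested where 3 or more of the 6 arrays showed a probe of it well above background, and its brightest such probe stands for the gene. This held for 45 members, each of them above background on all 6 arrays. The other 12 were not tested, among them Acvr1c, Bambi, Bmp15, Bmp5, Bmp8b, Chrdl1, Chrdl2, Fstl4, Fstl5, Inhbc and Smad9. None of the probes of 11 of these genes was above background on any array, and Bmp8b was above it on 1 UVB array and 0 control arrays. In all, 17 member probes were above background nowhere, and all 17 nonetheless stood higher on the UVB arrays, by a median of 0.53 on the log2 scale. The signal at the 75th percentile was 302 to 352 on UVB arrays and 363 to 519 on control arrays. The part of this offset in the rises of dim members, such as Bmpr1b and Smad6, was not tested.

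After UVB, 5 members were higher (Bmp8a, Id4, Bmpr1b, Fstl1 and Bmp2k), 2 were lower (Tgfbr3 and Tgfb1), and 38 did not pass the test (limma, Benjamini-Hochberg adjusted p under 0.05 over 24358 targets). The share of members called, 15.6%, lay near the 12.5% of all targets called. By direction, 11.1% of members were higher, against 5.54% of all targets, and 4.44% were lower, against 7% of all targets. The groups did not overlap for 22 of the 45 members, or 48.9%, against 38.5% of all targets. Of these 22, 9 stood above the controls, where 15.9% of all targets did so, and 13 below, where 22.6% of all targets did so. At an unadjusted limma p under 0.05, 17 of the 45 members passed, where 31.5% of all targets did so. The median log2 fold change was -0.04 for the members and -0.04 for all targets. With the array row on the slide as a block, a choice made after seeing the data, none of the 7 members passed, while 106 targets were higher and 122 lower. Row 1 of the slide held UVB replicate 1 and the 3 controls, and row 2 held UVB replicates 2 and 3. Within row 1, with UVB replicate 1 alone against the 3 controls, the log2 differences were 1.52 for Bmp8a, 1.51 for Id4, 1.75 for Bmpr1b, 0.99 for Fstl1, 0.89 for Bmp2k, -1.30 for Tgfbr3 and -0.86 for Tgfb1. Their signs were fixed by the groups' not overlapping and say nothing of the row. Of the 7 members, 2, 4 and 5 passed without UVB replicates 1, 2 and 3 in turn, and 4, 2 and 4 without control replicates 1, 2 and 3.

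**Figure D1:**
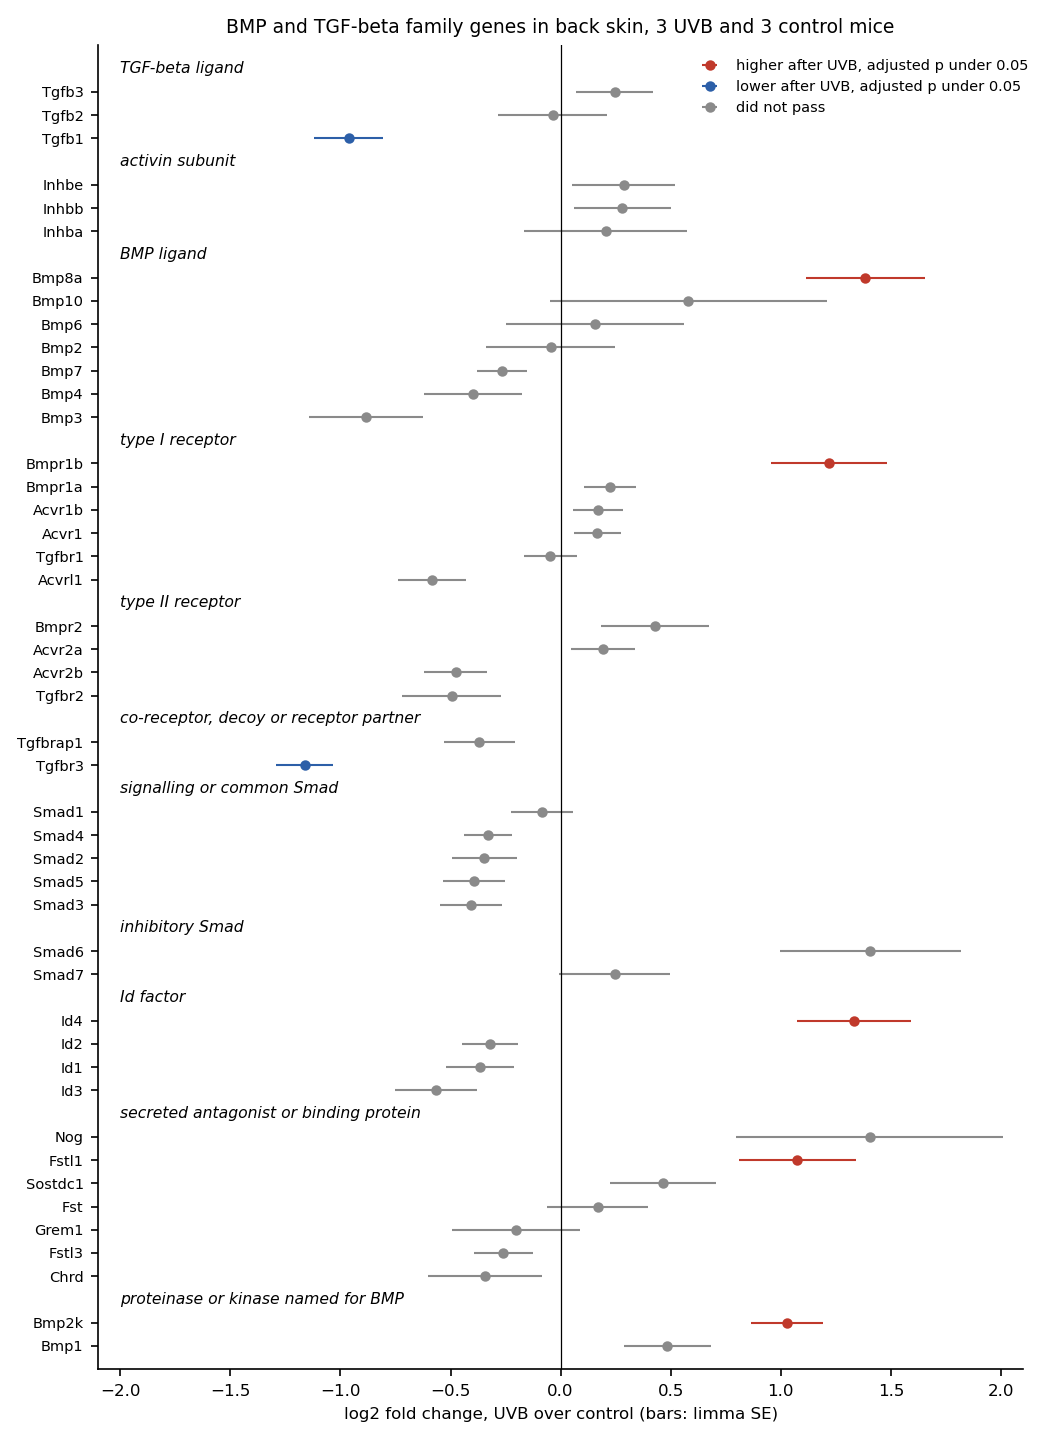
Log2 fold change, UVB over control, of the 45 tested members, grouped by role, with limma standard errors as bars (n = 3 mice per group). The 5 members in red and the 2 in blue passed the test, and 38 in grey, among them Nog at 1.40 and Smad6 at 1.41, did not.

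Among the TGF-beta ligands, only Tgfb1, which encodes the best studied TGF-beta, passed the test. Its level was -1.50, -1.56 and -1.73 in UVB mice 1 to 3, against -0.89, -0.49 and -0.52 in control mice 1 to 3. Every UVB mouse lay below every control mouse. Tgfb1 fell by 0.96 ± 0.16 on the log2 scale (SE, n = 3 per group, limma adjusted p = 0.0159), and its probe, present in 10 spots per array, lies on chromosome 7 at 26489877 to 26489936 of mm9. Without UVB replicate 1 or control replicate 2 it did not pass (limma adjusted p = 0.0520 and 0.0698, range 0.0238 to 0.0698 over the 6 omissions of 1 array), and with normexp background correction the log2 fold change was -0.65. Tgfb2 and Tgfb3 did not pass, with log2 fold changes of -0.04 ± 0.25 and 0.24 ± 0.17, and their groups overlapped. Tgfb2 had the other sign with normexp (0.0092).

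The promoter of Tgfb1 is shown because it carries the ligand that fell. The window runs from 250 bases before to 50 after the gene's start (RefSeq, GRCm38.p6, chr7:25686752-25687051, plus strand), and capitals mark GC boxes, GGGCGG on either strand, of which it holds 6.
Tgfb1: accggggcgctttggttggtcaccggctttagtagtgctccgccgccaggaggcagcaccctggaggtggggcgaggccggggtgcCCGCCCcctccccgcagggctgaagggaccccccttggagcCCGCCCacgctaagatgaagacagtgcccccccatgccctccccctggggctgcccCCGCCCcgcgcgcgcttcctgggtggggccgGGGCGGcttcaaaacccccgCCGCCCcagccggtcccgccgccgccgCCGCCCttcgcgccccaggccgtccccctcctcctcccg
It holds none of the other 4 motifs searched on both strands: GGCGCC (the GC-rich Smad site), CAGAC (the Smad box), GTCTAGAC (the palindromic Smad site) and TGANTCA (the AP-1 site). Of the 57 members, 39 had a promoter in the table, 47 promoters in all. A GC box stood in 70.2% of these 47 and in 35.7% of all 32851 promoters, GGCGCC in 27.7% and 11.9%, and CAGAC in 46.8% and 49.6%. TGANTCA stood in 0 of the member promoters and in 7.81% of all. These matches are letters in a window and do not show binding.

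Of 7 tested BMP ligands, 1 was higher and 6 did not pass. Bmp8a, a BMP best known from the germ line, stood at 0.36, -0.37 and 0.68 in UVB mice 1 to 3, against -1.10, -1.10 and -1.27 in control mice 1 to 3. All UVB mice lay above all controls, and the UVB mice spread more widely than the controls. Bmp8a rose by 1.38 ± 0.27 on the log2 scale, or 2.61-fold (SE, n = 3 per group, limma adjusted p = 0.0262), at a probe on chromosome 4 at 122989906 to 122989965 of mm9. It did not pass without UVB replicate 1 (limma adjusted p = 0.0873) or without control replicate 1, 2 or 3 (0.0651, 0.0895 and 0.0757), with a range of 0.0150 to 0.0895 over the 6 omissions of 1 array. Bmp8a and Bmp8b are closely related copies. At the best ungapped alignment tried, their probes match at 25 of 55 bases. That compares probe with probe, not the Bmp8b transcript with the Bmp8a probe. Whether transcripts of Bmp8b reach the Bmp8a probe was not tested.

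Bmp2, Bmp4, Bmp6 and Bmp7, ligands that skin and hair follicles are known to use, did not pass, with log2 fold changes of -0.05 ± 0.29, -0.40 ± 0.22, 0.16 ± 0.40 and -0.27 ± 0.11 (limma adjusted p = 0.935, 0.276, 0.825 and 0.171). Only for Bmp7 did the groups not overlap, at 3.51, 3.50 and 3.46 in UVB mice 1 to 3, against 3.63, 3.84 and 3.79 in control mice 1 to 3. The 95% intervals ran from -0.75 to 0.66 for Bmp2, from -0.94 to 0.14 for Bmp4 and from -0.82 to 1.13 for Bmp6. With this number of mice, changes within these intervals could not be told from no change. The sign of Bmp2 depended on the scaling (0.031 with quantile normalization). The 3 tested activin and inhibin subunits, Inhba, Inhbb and Inhbe, had log2 fold changes of 0.21 to 0.29, and for each of the 3 the groups overlapped.

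Among the receptors, 1 type I receptor rose and the co-receptor Tgfbr3 fell. Bmpr1b, which encodes a type I BMP receptor, stood at -1.60, -2.34 and -2.45 in UVB mice 1 to 3, against -3.08, -3.37 and -3.60 in control mice 1 to 3. The groups did not overlap. Bmpr1b rose by 1.22 ± 0.26 on the log2 scale, or 2.33-fold (SE, n = 3 per group, limma adjusted p = 0.0344), at a probe on chromosome 3 at 141503374 to 141503433 of mm9. Another probe of Bmpr1b was above background on no array. With normexp the log2 fold change of the tested probe was 0.77, and with no filter on dim probes Bmpr1b did not pass (limma adjusted p = 0.0545). Without control replicate 1, 2 or 3 it did not pass (limma adjusted p = 0.0587, 0.114 and 0.0953), nor without UVB replicate 1 or 2 (0.0645 and 0.0639), with a range of 0.0449 to 0.114 over the 6 omissions.

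Tgfbr3 encodes betaglycan, which presents TGF-beta ligands to the signalling receptors. It stood at 0.09, 0.41 and 0.19 in UVB mice 1 to 3, against 1.32, 1.40 and 1.46 in control mice 1 to 3. The gap between the groups was wider than the spread within either. Tgfbr3 fell by 1.16 ± 0.13 on the log2 scale (SE, n = 3 per group, limma adjusted p = 0.00604), with a 95% interval of -1.48 to -0.85, at a probe on chromosome 5 at 107535818 to 107535877 of mm9. It passed in all 6 omissions of 1 array (limma adjusted p = 0.0162 to 0.0331).

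The other signalling receptors did not pass. Tgfbr1 and Tgfbr2, the kinase receptors of TGF-beta, had log2 fold changes of -0.05 ± 0.12 and -0.50 ± 0.22, and both overlapped between the groups. Bmpr1a, the widely expressed type I BMP receptor, and Bmpr2, its type II partner, had 0.22 ± 0.12 and 0.43 ± 0.25. Acvr1, Acvr1b and Acvr2a, receptors of activins and BMPs, had 0.17 ± 0.11, 0.17 ± 0.11 and 0.19 ± 0.15. Acvrl1, a type I receptor known from blood vessels, stood at -1.16, -1.19 and -1.11 in UVB mice 1 to 3, against -0.39, -0.46 and -0.85 in control mice 1 to 3. Its groups did not overlap, and its log2 fold change of -0.58 ± 0.15 just missed the threshold (limma adjusted p = 0.0563, range 0.0363 to 0.272 over 16 alternatives). Of the 6 tested type I receptors, 5 had groups that did not overlap, 4 with the UVB mice above and 1 below. The groups did not overlap for 38.5% of all targets, 15.9% above and 22.6% below. Only Bmpr1b of these 5 receptors passed the test.

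**Figure D2:**
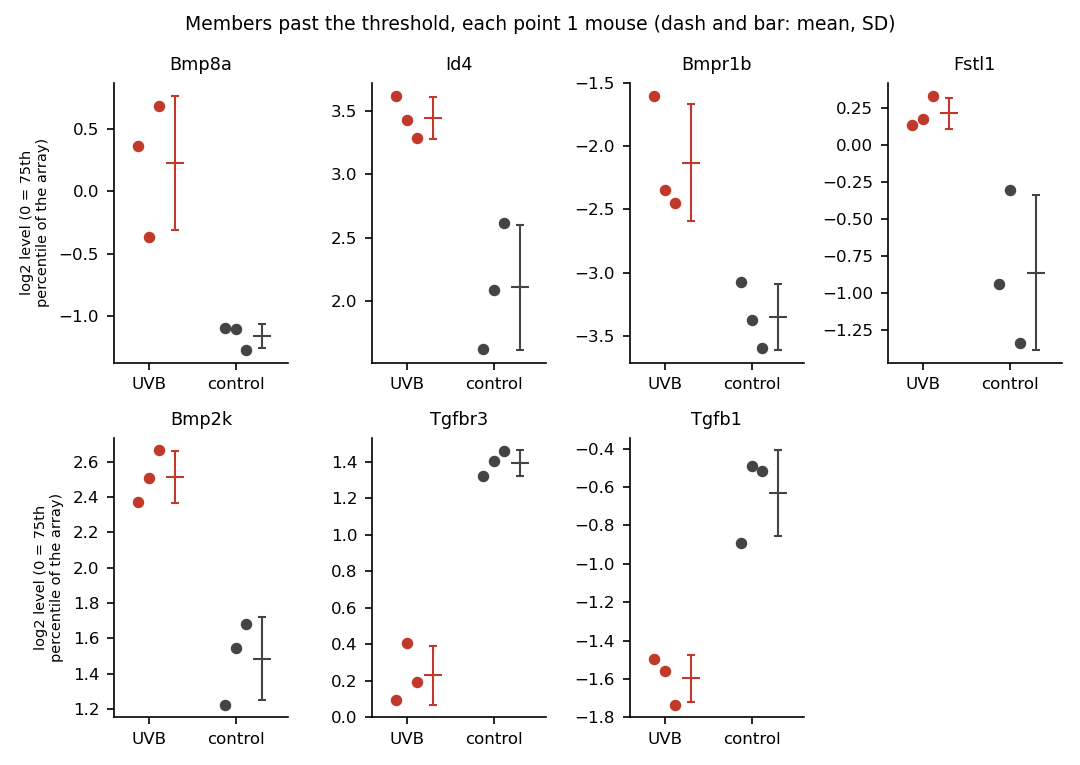
Log2 level of the 7 members past the threshold, 1 point per mouse, UVB at the left and control at the right of each panel, with the group mean and SD beside the points. All 3 UVB mice lay above all 3 control mice for Bmp8a, Id4, Bmpr1b, Fstl1 and Bmp2k, and below them for Tgfbr3 and Tgfb1.

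None of the 5 tested signalling and common Smads passed as a gene, and all 5 had negative log2 fold changes. Smad2 and Smad3, which carry TGF-beta and activin signals, had -0.35 ± 0.15 and -0.41 ± 0.14, and Smad1 and Smad5, which carry BMP signals, -0.09 ± 0.14 and -0.39 ± 0.14. Smad4, the common partner, had -0.33 ± 0.11 (limma adjusted p = 0.0987), at 2.87, 2.98 and 2.84 in UVB mice 1 to 3, against 3.23, 3.18 and 3.27 in control mice 1 to 3. The UVB mice lay below all controls for Smad2, Smad3, Smad4 and Smad5, and the groups overlapped for Smad1, whose sign turned when its probes were averaged (0.076). Over all targets, the UVB mice lay below all controls for 22.6%, and 46.7% had positive log2 fold changes. A dimmer probe of Smad5, on chromosome 13 at 56838912 to 56838971 of mm9, passed among all probes. It stood at -2.96, -3.19 and -3.01 in UVB mice 1 to 3, against -2.13, -2.49 and -2.17 in control mice 1 to 3, a difference of -0.79 ± 0.15 on the log2 scale (limma SE, 3 mice per group, adjusted p = 0.0271). It did not pass in any of the 6 omissions of 1 array (limma adjusted p = 0.0551 to 0.0802) or with normexp, which gave -0.21, and the brighter probe of Smad5 gave -0.39 (limma adjusted p = 0.117 among genes).

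The inhibitory Smads block receptors and are themselves induced by the pathway. Smad6 stood at -2.33, -2.84 and -1.23 in UVB mice 1 to 3, against -3.47, -3.31 and -3.84 in control mice 1 to 3. All UVB mice lay above all controls, with UVB replicate 3 the highest. The log2 fold change was 1.41 ± 0.41 and did not pass (limma adjusted p = 0.0725), but passed with normexp at 0.89 (0.0323) and with a variance trend and robust fit (0.0458), within a range of 0.0323 to 0.382 over 16 alternatives. Smad7 had 0.25 ± 0.25, and its groups overlapped. The promoter of Smad6 is shown because it was the only one of the 47 member promoters with the palindrome GTCTAGAC, which 0.213% of all promoters hold. The window (RefSeq, GRCm38.p6, chr9:64022010-64022309, minus strand) has the palindrome at bases 247 to 254 and 4 GC boxes, all in capitals.
Smad6: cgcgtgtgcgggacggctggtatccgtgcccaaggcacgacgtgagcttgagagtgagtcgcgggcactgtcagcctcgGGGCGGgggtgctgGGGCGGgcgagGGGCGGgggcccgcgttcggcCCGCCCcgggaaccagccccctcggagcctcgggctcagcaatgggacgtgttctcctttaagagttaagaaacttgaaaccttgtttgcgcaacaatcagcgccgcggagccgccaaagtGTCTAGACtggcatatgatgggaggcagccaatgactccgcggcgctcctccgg

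The 4 Id genes, which encode inhibitors of basic helix-loop-helix transcription factors, split in direction. Id4 stood at 3.62, 3.43 and 3.28 in UVB mice 1 to 3, against 1.63, 2.09 and 2.61 in control mice 1 to 3. All UVB mice lay above all controls, and the controls spread more widely. Id4 rose by 1.33 ± 0.26 on the log2 scale, or 2.52-fold (SE, n = 3 per group, limma adjusted p = 0.0261), at a probe on chromosome 13 at 48358668 to 48358727 of mm9. It did not pass without UVB replicate 1, 2 or 3 (limma adjusted p = 0.0873, 0.0666 and 0.0516) or without control replicate 2 (0.0943), with a range of 0.0174 to 0.0943 over the 6 omissions.

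Id1 stood at 2.95, 3.29 and 3.33 in UVB mice 1 to 3, against 3.72, 3.50 and 3.45 in control mice 1 to 3. Id2 stood at 1.50, 1.32 and 1.62 in UVB mice 1 to 3, against 1.85, 1.83 and 1.73 in control mice 1 to 3. Id3 stood at 1.82, 1.77 and 2.14 in UVB mice 1 to 3, against 2.55, 2.17 and 2.71 in control mice 1 to 3. For all 3 genes every UVB mouse lay below every control, as for 22.6% of all targets. The gap was small for Id3, and none of the 3 genes passed. Their log2 fold changes were -0.37 ± 0.15, -0.32 ± 0.13 and -0.56 ± 0.19 (limma adjusted p = 0.164, 0.144 and 0.0977), with the same sign in all 16 alternatives. Since the groups did not overlap, the omissions of 1 array and the row block could not change that sign. Id3 passed with normexp (limma adjusted p = 0.0417) and with a variance trend and robust fit (0.0490), within a range of 0.0417 to 0.304 over 16 alternatives. Whether Id4 differed from Id1, Id2 and Id3 in its response was not tested, since levels of different probes were not set against each other.

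The promoters of Id3 and Id4 are shown because these Id genes lay farthest apart in log2 fold change. Both windows are from RefSeq (GRCm38.p6), Id3 at chr4:136143572-136143871 and Id4 at chr13:48260866-48261165, both on the plus strand, and capitals mark motif matches.
Id3: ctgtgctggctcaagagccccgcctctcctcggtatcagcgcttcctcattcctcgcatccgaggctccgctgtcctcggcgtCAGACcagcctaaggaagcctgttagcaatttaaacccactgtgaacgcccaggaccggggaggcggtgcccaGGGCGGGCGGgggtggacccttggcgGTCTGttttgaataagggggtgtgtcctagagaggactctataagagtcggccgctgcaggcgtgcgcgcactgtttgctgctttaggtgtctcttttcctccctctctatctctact
Id4: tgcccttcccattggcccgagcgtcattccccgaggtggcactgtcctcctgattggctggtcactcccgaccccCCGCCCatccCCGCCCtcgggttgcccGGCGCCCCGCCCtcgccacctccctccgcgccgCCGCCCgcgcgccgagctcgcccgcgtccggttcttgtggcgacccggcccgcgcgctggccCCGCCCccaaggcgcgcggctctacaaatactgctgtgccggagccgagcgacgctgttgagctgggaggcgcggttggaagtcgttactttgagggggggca
Id3 holds CAGAC on 2 occasions, once on each strand, and 2 GC boxes that overlap. Id4 holds GGCGCC on 1 occasion and 5 GC boxes, and no CAGAC.

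**Figure D3:**
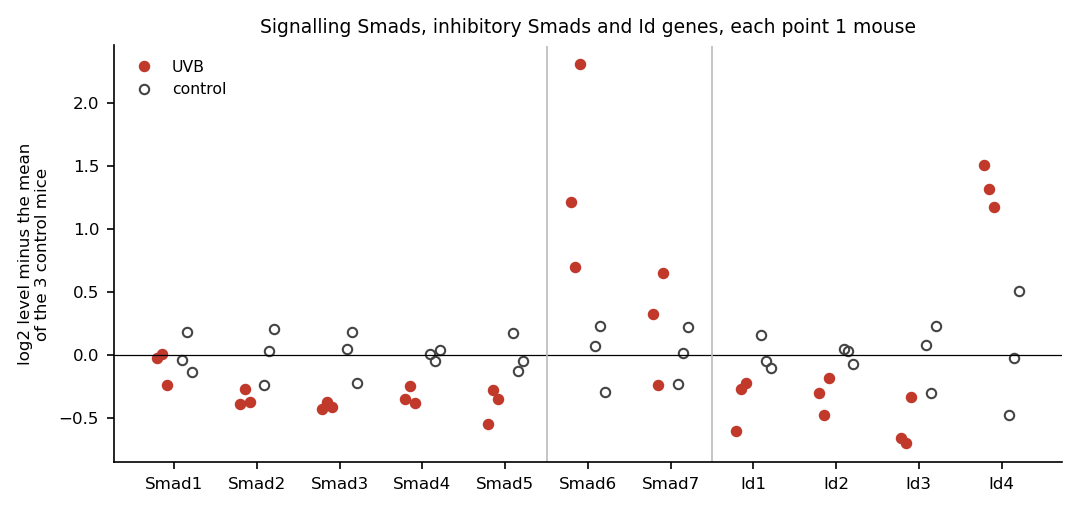
Log2 level of 5 signalling and common Smads, 2 inhibitory Smads and 4 Id genes, 1 point per mouse, after subtracting the mean of the 3 control mice of that gene, with UVB mice left of control mice. UVB mice lay below all controls for Smad2, Smad3, Smad4, Smad5, Id1, Id2 and Id3, and above all controls for Smad6 and Id4. Of all targets, 22.6% lay below and 15.9% above in this way.

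Of 7 tested secreted antagonists and binding proteins, 1 was higher and 6 did not pass. Fstl1, a secreted glycoprotein of the follistatin family, stood at 0.13, 0.18 and 0.33 in UVB mice 1 to 3, against -0.94, -0.30 and -1.34 in control mice 1 to 3. Each UVB mouse lay above each control. Fstl1 rose by 1.08 ± 0.26 on the log2 scale, or 2.11-fold (SE, n = 3 per group, limma adjusted p = 0.0483), at a probe on chromosome 16 at 37836492 to 37836551 of mm9. Among all probes it missed the threshold (limma adjusted p = 0.0509). Without 1 array it passed again only without control replicate 2 (limma adjusted p = 0.0287), while the other omissions gave 0.115, 0.0979 and 0.114 for UVB replicates 1 to 3 and 0.112 and 0.0925 for control replicates 1 and 3.

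Nog encodes noggin, which binds BMPs and keeps them from their receptors. It stood at -0.81, -1.15 and 0.49 in UVB mice 1 to 3, against -0.97, -1.79 and -2.92 in control mice 1 to 3. The groups overlapped, and the log2 fold change of 1.40 ± 0.61 did not pass (limma adjusted p = 0.173), with a 95% interval of -0.06 to 2.87. Sostdc1, a secreted BMP and Wnt antagonist of hair follicles and teeth, had 0.46 ± 0.24, and Fst, follistatin, which binds activins, had 0.17 ± 0.23. Grem1 and Chrd, gremlin and chordin, had -0.20 ± 0.29 and -0.34 ± 0.26. The groups of these 5 genes overlapped.

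Bmp2k and Bmp1 are captured by their symbols but are not ligands. Bmp2k encodes a kinase first found as a transcript induced by BMP2. It stood at 2.37, 2.50 and 2.66 in UVB mice 1 to 3, against 1.22, 1.55 and 1.68 in control mice 1 to 3. All UVB mice lay above all controls, and Bmp2k rose by 1.03 ± 0.16 on the log2 scale, or 2.04-fold (SE, n = 3 per group, limma adjusted p = 0.0152), at a probe on chromosome 5 at 97519810 to 97519869 of mm9. Omitting control replicate 2 ended the call (limma adjusted p = 0.0601, range 0.0272 to 0.0601 over the 6 omissions). Another probe of that symbol, placed by the files on chromosome 16, was above background on no array. Bmp1, a proteinase that processes procollagens, did not pass.

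The 7 tested members not given with values above (Acvr2b, Bmp1, Bmp10, Bmp3, Fstl3, Inhbe and Tgfbrap1) had log2 fold changes of -0.88 to 0.58, and none passed. The UVB mice lay below all controls for Acvr2b and Bmp3, and the groups overlapped for the other 5. Acvr2b, a type II activin receptor, passed in 3 of 16 alternatives: median scaling, normexp, and a variance trend with a robust fit (limma adjusted p = 0.0461, 0.0410 and 0.0396, against 0.0795 in the fit reported here).

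Of 57 member probes tested singly among 33767 probes, 4 were higher and 3 lower, where 11.2% of all probes were called. The 10 genes with more than 1 tested probe had probes of the same sign in 8 cases and of both signs in 2, Acvr1b and Smad1, and none of the probes of those 2 genes passed. Dimmer probes of Smad3 and Tgfbr1 were above background on 2 control arrays each and on 0 UVB arrays, and were not tested.

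**Figure D4:**
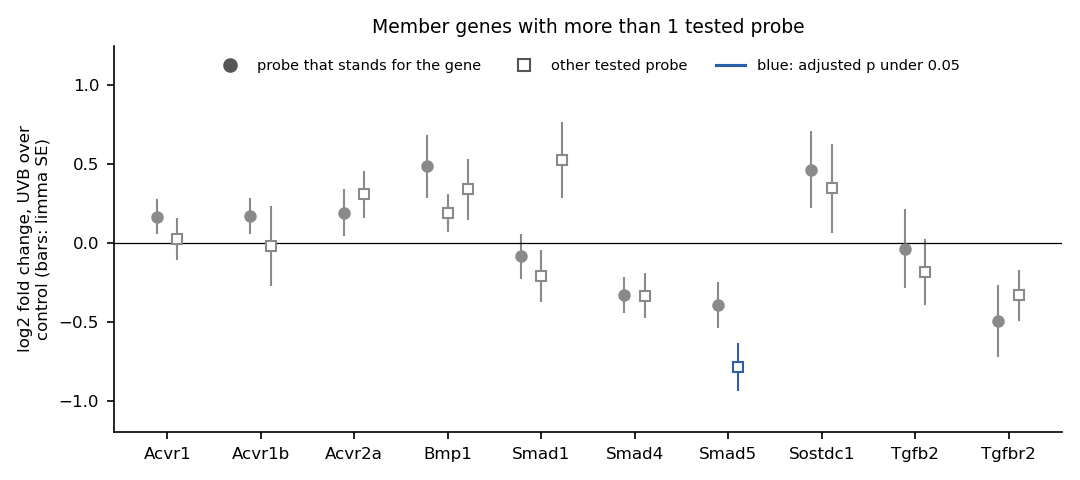
Log2 fold change, UVB over control, of each tested probe of the 10 members with more than 1 tested probe, with limma standard errors as bars (n = 3 mice per group). The dimmer probe of Smad5, at -0.79, was the only one of these past the threshold, and the probes of Acvr1b and Smad1 lay on both sides of 0.

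Among 116 other genes of the pathway, grouped in 6 lists, 101 were tested, 9 were higher, 9 were lower and 83 did not pass. This was 8.91% in each direction, against 5.54% higher and 7% lower of all targets. The lists were chosen with earlier results of these data known, so these shares are no test of the pathway. Of 20 tested TGF-beta target genes, 3 were higher, 3 lower and 14 did not pass. Postn, a matricellular protein, and Angptl4, a secreted lipase inhibitor, fell by 1.31 ± 0.16 and 2.05 ± 0.25 on the log2 scale (SE, n = 3 per group, limma adjusted p = 0.00768 and 0.00696), and both passed in all 6 omissions of 1 array. The fibrillar collagen genes Col1a1, Col1a2 and Col3a1, also on this list, rose by 2.35 ± 0.46, 1.70 ± 0.37 and 1.91 ± 0.43 (limma adjusted p = 0.0262, 0.0337 and 0.0387). In the 6 omissions of 1 array, Col1a1 passed without control replicates 2 and 3, while Col1a2 and Col3a1 passed when control replicate 2 alone was omitted and not otherwise (limma adjusted p = 0.0248 to 0.0855, 0.0221 to 0.104 and 0.0267 to 0.112).

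Of 15 tested genes of TGF-beta latency and activation, 2 were higher and 2 lower. Lrrc32, which tethers latent TGF-beta to the cell surface, rose by 1.30 ± 0.19, and Itgb8, a subunit of an integrin that activates it, by 0.93 ± 0.17. Thbs1, thrombospondin, another activator, fell by 2.06 ± 0.39, and Ltbp4, a latent TGF-beta binding protein, by 0.62 ± 0.12 (limma adjusted p = 0.0129, 0.0229, 0.0233 and 0.0265 for Lrrc32, Itgb8, Thbs1 and Ltbp4). In the omissions of 1 array, Lrrc32 did not pass without UVB replicate 1 or control replicate 2 (limma adjusted p = 0.0511 and 0.0526), nor Thbs1 without UVB replicate 1 or 2 or control replicate 1 (0.0790, 0.0660 and 0.0562). Itgb8 passed only without control replicate 1 and Ltbp4 only without UVB replicate 3 (limma adjusted p = 0.0486 to 0.0698 and 0.0352 to 0.0910 over the 6 omissions).

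Of 21 intracellular regulators, 1 was higher and 3 lower. Skil, a repressor of Smad complexes, rose by 0.70 ± 0.16. Tgif1, a Smad corepressor, and Nedd4l, a ubiquitin ligase, fell by 0.97 ± 0.14 and 0.86 ± 0.11. Tgif1 and Nedd4l passed in all 6 omissions, while Skil passed in 1 of them, the omission of control replicate 3 (limma adjusted p = 0.0279 to 0.128 over the 6 omissions). Of 17 tested co-receptors and extracellular modulators, endoglin (Eng), a TGF-beta co-receptor of endothelium, rose by 0.96 ± 0.16 and Amhr2, the type II receptor of anti-Müllerian hormone, fell by 1.18 ± 0.11 (limma adjusted p = 0.0182 and 0.00388). Amhr2 passed in all 6 omissions, and Eng did not pass without UVB replicate 1 or control replicate 1 or 2 (limma adjusted p = 0.0638, 0.0530 and 0.0762).

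Of 17 BMP target genes, 1 was higher, the homeobox gene Dlx3, at 0.90 ± 0.17 (limma adjusted p = 0.0241), which did not pass without UVB replicate 1 or control replicate 1 or 2 (0.0625, 0.0659 and 0.0972). The other 16 did not pass. Of 11 other ligands, 1 was called higher, Gdf10, which was above background on 3 UVB arrays and 0 control arrays. It entered the test through the UVB arrays alone, so that its call among the 9 rests on control values at background, where dim probes carried the offset given above. With the processing reported here, Gdf10 stood at least 2.89-fold higher after UVB as a bound. The limma adjusted p of 0.00627 belongs to the fitted value against controls at background, not to the bound. With normexp the log2 fold change of Gdf10 was 0.74, short of that bound, so the bound did not hold there.

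**Figure D5:**
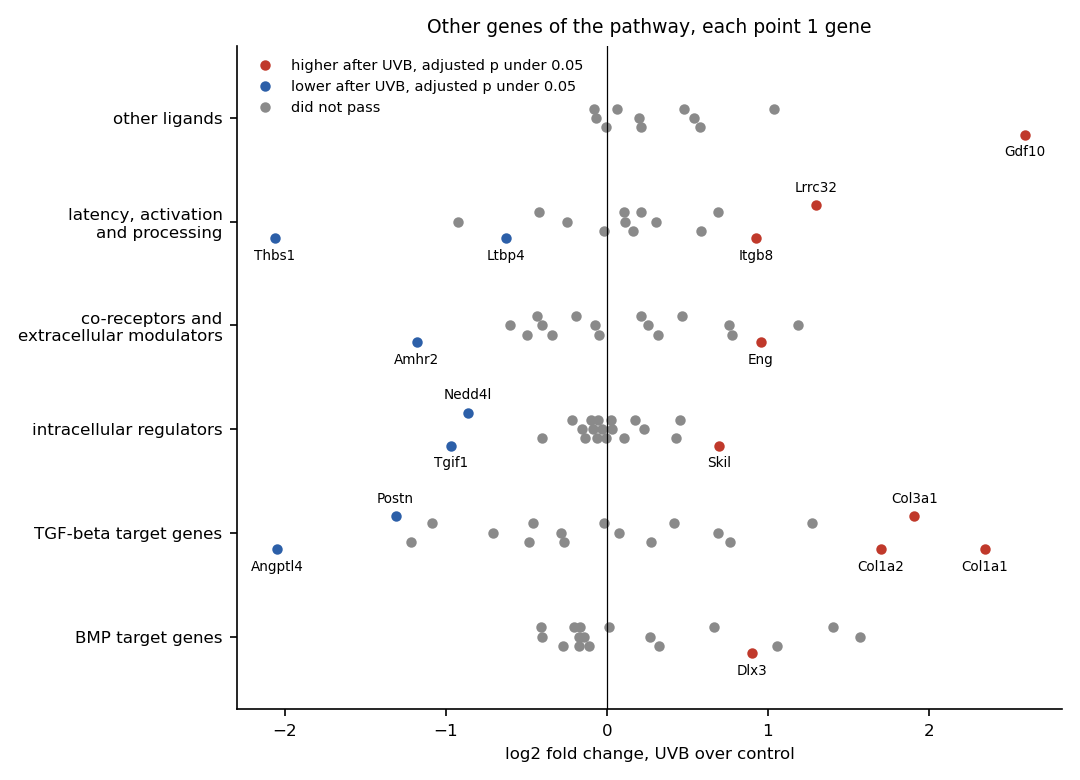
Log2 fold change, UVB over control, of other tested genes of the pathway reported here, 1 point per gene in 6 lists, with points shifted up or down only to separate them. Genes past the threshold are named, higher in red and lower in blue, from Thbs1 at -2.06 to Gdf10 at 2.60, a fitted value against controls that lay at background.

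Markers of some cell types passed the test, and those of others did not. Beside the rises of Bmp8a, Bmpr1b and Id4, 17 of 19 hair shaft and inner root sheath markers were higher. Summed levels are on a linear scale where 1 is the 75th percentile of an array. Such a sum follows its brightest probes, since levels of different probes are not on a common scale, and it can differ from the count of markers called. For the 19 markers the summed levels were 362 to 1535 in UVB mice and 23.5 to 28.7 in control mice. Of the 19, 4 were above background on no control array, so they entered the test through the UVB arrays alone. Of 8 suprabasal keratinocyte markers 4 were higher, with summed levels of 3755 to 4548 in UVB mice and 2286 to 2814 in control mice. Of 7 melanocyte markers 5 were higher, with 19.5 to 29.1 in UVB mice and 5.96 to 6.88 in control mice. Of the 7, 1 was above background on no control array. Of 10 hair follicle stem cell and germ markers 0 passed, with summed levels of 775 to 821 in UVB mice and 791 to 898 in control mice. Of 9 tested dermal papilla markers 2 were higher and 1 lower, and Corin, Sox2, Sox18 and Prom1 were not above background on enough arrays to be tested.

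Beside the rises of Fstl1 and the collagens, 4 of 6 tested dermal fibroblast markers were higher, 3 of them those same collagens. Their summed level was 14.4 to 21.9 in UVB mice and 3.48 to 8.22 in control mice, and Pdgfra and Pdgfrb were not tested for lack of signal. Beside the falls of Tgfb1 and Tgfbr3, 5 of 8 Langerhans and dendritic cell markers were lower, with a summed level of 87.1 to 117 in UVB mice and 201 to 235 in control mice. Of 4 tested macrophage markers 2 were lower, with 16.5 to 22.8 in UVB mice and 25.9 to 27.7 in control mice, and Cd68 and Cd163 were not tested for lack of signal. Of 6 tested T cell markers 4 were lower and 1 higher, with 11.5 to 17.1 in UVB mice and 17.8 to 22.4 in control mice. Of the 6, 1 was above background on no control array, and Trac was not tested. Of 7 basal keratinocyte markers 4 were lower, with summed levels of 1314 to 1457 in UVB mice and 1334 to 1628 in control mice. Of 4 tested adipocyte markers 1 was higher and 2 lower, with 7.19 to 29.7 in UVB mice and 5.11 to 6.59 in control mice. Of 4 tested endothelial markers 1 was lower, while their summed level was higher. It was 11.3 to 13.9 in UVB mice and 9.14 to 10.6 in control mice. In each of these 2 lists, 1 marker was above background on no UVB array. Of 5 Schwann cell markers 1 was higher and 1 lower, with 4.71 to 5.96 in UVB mice and 8.29 to 9.39 in control mice. Of the skeletal muscle, smooth muscle and mast cell markers 0 passed. The summed level of the smooth muscle markers was nonetheless higher in every UVB mouse than in every control mouse. The summed levels of the skeletal muscle and mast cell markers overlapped between the groups. The part of these cell types in the member results was not tested. In RNA of a tissue of many cell types, fewer cells of a type and less RNA per cell cannot be told apart.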

How the data were processed

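Per the file headers, the authors extracted a spot intensity from each 1-colour array with Agilent Feature Extraction 10.7.1.1, including background subtraction with detrending and outlier flags but no scaling between arrays. The labels name 0.2 µg of RNA labelled with Cy3. The authors also deposited a table of log2 values, and how it was made is not given in the sources used. Each of its columns had a median of 4.95 and correlated with its own array at r of at least 0.9987, and it served as an alternative.

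From the intensity, log2 values were taken and the 75th percentile of each array over spots that were not controls was subtracted. Control and flagged spots were left out and spots of a probe were averaged. UVB was compared with control with limma 3.58.1 in R 4.3.3 (lmFit, eBayes, two-sided, Benjamini-Hochberg) over 24358 targets, or over 33767 probes, without covariates. Probes were named through RefSeq accession, symbol or synonym. Probe positions are those of the files. A probe above background on no array of one group has a bound in place of a fold: that group's arrays each take the dimmest signal called well above background, or the probe's signal where brighter, and their mean is set against the measured mean of the other group.

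The members and lists were chosen with earlier results of these data known. Members past the threshold, as genes or single probes, and a fixed set of ligands, receptors, Smads, Ids and antagonists were named with values, other members by count, and per list and direction up to 3 other pathway genes of smallest p. Some genes are counted but are not reported here by name. The limma fit was tested on simulated log2 values with known changes, and the other steps were not simulated. Alternatives were other scalings, normexp background correction with an offset of 50, other filters, probe averages, another variance model, blocks and the omission of 1 array.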

Additional observations from a re-analysis of the deposited data

How the results depend on the processing

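The main counts were 5 members higher and 2 lower, 4 member probes higher and 3 lower, 9 other pathway genes higher and 9 lower, and 1350 targets higher and 1706 lower. Median scaling gave 4 members lower. Normexp gave 6 members lower, 6 probes lower, 19 other pathway genes higher and 14 lower, and 2548 targets higher. A variance trend with a robust fit gave 6 members and 7 probes lower, and testing every probe gave 1061 targets lower. Replicate numbers did not pair the samples (correlations of same-numbered deviations -0.11, -0.26 and -0.08). With them as a replicate block, 2 members were higher and 1 lower, 0 probes higher and 1 lower, 3 other pathway genes higher and 5 lower, and 472 targets higher and 301 lower. With the slide row as a block, added after seeing the data, 0 members and 0 probes passed in either direction, with 0 other pathway genes higher and 1 lower, and 106 targets higher and 122 lower. Leaving out 1 array gave 1 to 3 members higher and 1 to 3 lower, 0 to 2 probes higher and 1 to 2 lower, 1 to 8 other pathway genes higher and 6 to 11 lower, and 468 to 957 targets higher and 391 to 1064 lower. All 6 arrays lay on 1 slide, so a slide block was not run. All 7 called members and the 18 called other pathway genes kept their sign in every alternative run. For the 7 members, whose groups did not overlap, the omissions of 1 array and the row block could not change the sign. The filters, the other variance model and the replicate block left the fold changes of these members as they were. Their kept signs are thus no measure of robustness in those settings. Of the single-gene values, 864 stayed on their side of the threshold, 121 lost the call, 17 gained it and 20 changed sign.

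Sign changes were confined to uncalled members. Bmp2 stood at 0.031 with quantile normalization, 0.0082 in the deposited table, and between -0.35 and 0.15 without 1 array. Bmp6 stood at -0.34, Bmpr2 at -0.053 and Bmp10 at -0.44 with the slide row block. Smad1 stood at 0.076 as the mean of its probes and Tgfb2 at 0.0092 with normexp. Without 1 array the ranges were -0.28 to 0.40 for Bmp6, -0.020 to 0.34 for Fst, -0.44 to 0.018 for Grem1, -0.17 to 0.40 for Inhba, -0.155 to 0.0056 for Smad1, -0.23 to 0.14 for Tgfb2 and -0.089 to 0.021 for Tgfbr1. The median of all targets moved by -0.10 with median scaling and by 0.12 with normexp, and 35.4% and 50.6% of called targets were then higher, against 44.2%. The causes were not tested. With 3 mice per group, a member whose printed interval spans 0 may be unchanged or changed by any amount inside it. Dim probes carry an offset between the groups.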
